A study of Drosophila melanogaster with 6 samples.

Results

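The 8 Drosophila genes CG15715, CG18081, CG31778, CG31777, CG9331, CG31673, ETH and CG8500 are described here, whose transcripts were lower after RNA interference (RNAi) against spotted-dick, and each of which lies next to another gene that was also lower. They form 3 pairs of adjacent genes, CG18081 with CG15715 on chromosome arm 3L and CG31778 with CG31777 and CG9331 with CG31673 on 2L, while ETH lies beside Orc4 on 2R and CG8500 beside MtnA on 3R. The 8 genes were picked by symbol from 11983 genes that had a probe set of their own. Each was measured by 1 probe set, and no probe set shared with another gene carried any of their names. They were chosen because their signals fell in the very contrast reported here. Their own changes are therefore given as values with no p-value, and counts of calls that include them follow from the choice and support nothing. Tests are read only for genes that were not chosen in this way.

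The samples were S2 cells, an embryonic Drosophila line with blood-cell-like properties, and both groups came from the same line, harvested 5 days after double-stranded RNA (dsRNA) was added. Such RNA enters these cells and triggers degradation of the matching mRNA. The 3 control samples received dsRNA against GFP, a jellyfish gene that flies lack, and the other 3 received dsRNA against spotted-dick, the gene now called pita. Total RNA of each sample was hybridised to 1 Affymetrix Drosophila_2 array. The labels name 1 dsRNA per target, no rescue and no separate cultures, so effects of losing spotted-dick and other effects of its dsRNA cannot be told apart, and p-values measure only the spread between these samples, which may be technical. These are bulk samples, in which fewer cells of a type and less RNA per cell cannot be told apart.

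Spotted-dick encodes a zinc-finger protein that binds DNA at gene promoters and at chromatin boundaries. Neighbouring genes in the compact fly genome often lie so close that they share a regulatory interval or overlap. Changes in one gene of such a pair are therefore commonly examined together with those of the next. A pair may also descend from one duplicated gene, in which case both copies can have similar sequences, and an array probe set may respond to both. How similar the probe sets of the pairs are was not examined.

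The arrays differed in brightness. The trimmed mean signal ranged from 125.8 to 189.6 over the GFP arrays and from 125.4 to 138.8 over the spotted-dick arrays, so signals were quantile normalized before they were compared. Differences are given as the mean log2(signal + 16) of the spotted-dick arrays minus that of the GFP arrays, called the log2 difference below. The added 16 makes the size of a change smaller for dim genes. A probe set was called at an adjusted p under 0.05 in limma. The number of arrays limits the precision. Signals of the target pita were 335.9, 333.2 and 269.7 under GFP RNAi and 25.9, 46.6 and 28.7 under spotted-dick RNAi (replicates 1, 2 and 3 in this order, as for all signals below), so each spotted-dick array was lower than each control. Of 9 blood-cell markers expected in S2 cells, srp, ush, Hml, crq, Col4a1 and vkg were bright, while Sr-CI and NimC1 had mean signals of 5.5 and 7.5 in the GFP arrays, under 17.4, the 95th percentile of control probe sets for foreign sequences. Their summed signal was 12367 to 16540 in the GFP arrays and 11659 to 12528 in the spotted-dick arrays. One of 8 tested, the extracellular matrix peroxidase gene Pxn, was higher in the spotted-dick arrays (log2 difference 1.40 ± 0.18, SE, limma adjusted p = 0.00039). Its GFP signals of 30.2, 11.5 and 16.8 lay about 17.4, and the size depended on the constant, at 2.015 and 0.738 with 1 and 64 added. The 10 measured markers of neurons, muscle, germ line, yolk, fat body and accessory gland summed to 146.0 to 178.7 and to 125.8 to 131.5, and of these the neuronal gene elav was the brightest at 101.0 and 61.3. The part of these markers in the changes below was not tested.

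**Figure D1:**
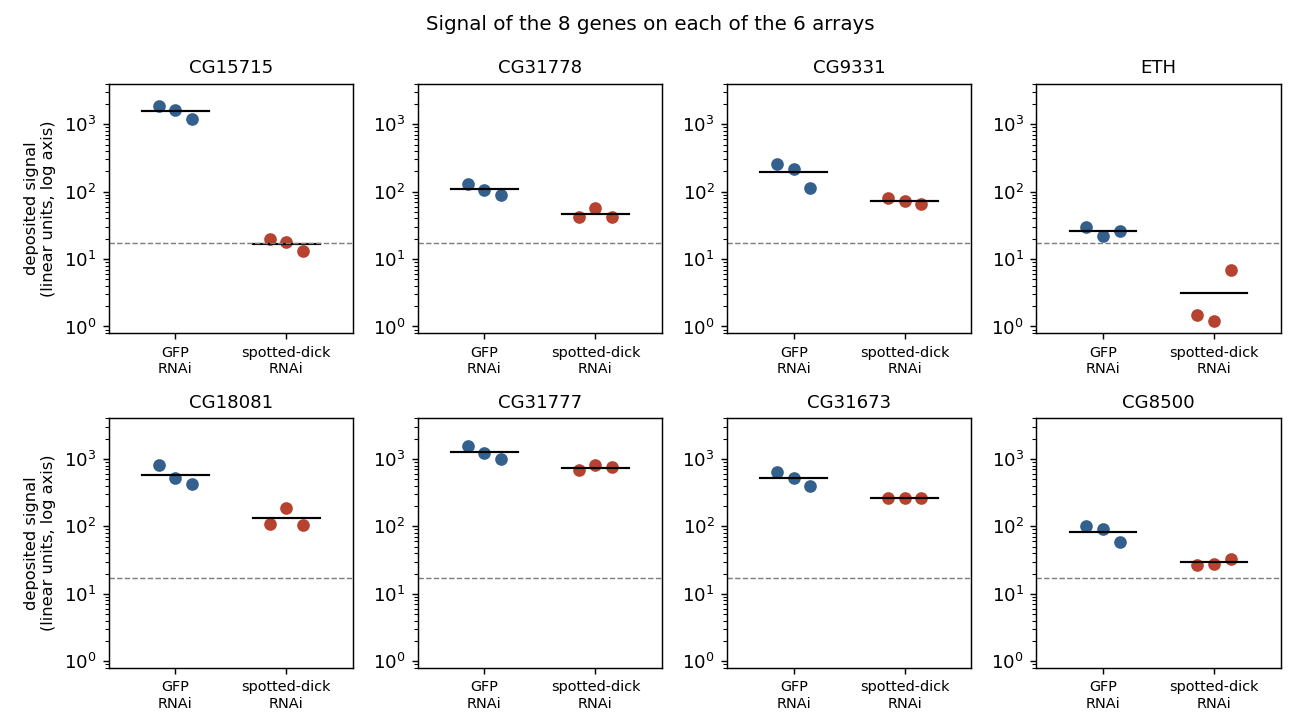
Deposited signal (linear units on a log axis) of each of the 8 genes, with 1 point per array, a bar at the mean of the 3 arrays of a group, and a dashed line at 17.4, the 95th percentile of foreign-sequence controls. In every panel the 3 spotted-dick RNAi points lie below the 3 GFP RNAi points, and ETH lies under the dashed line in all 3 spotted-dick arrays.

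CG15715 fell from a bright signal to about background, and its neighbour CG18081 fell less far. The signal of CG15715 was 1858.1, 1623.0 and 1178.2 under GFP RNAi, against 20.1, 17.8 and 13.1 under spotted-dick RNAi. The transcript was thus well measured in every control array and near 17.4 in every spotted-dick array, under it in 1 of the 3, with no overlap. After quantile normalization its mean went from 1409 ± 61.6 to 18.0 ± 3.4 (SD, n = 3), or 1.28% of the control signal, and the log2 difference was -5.39. Since what is left lies about at background, these describe signal and not transcript: against the floor of 17.4 per array, or the array's own value where higher, the deposited signal was at least 82.95-fold lower. This is a ratio of geometric means (taken on the log scale) and is not adjusted for array brightness. CG18081 had signals of 807.3, 515.3 and 422.4 under GFP RNAi, against 110.0, 185.0 and 104.4 under spotted-dick RNAi, and its lowest control array was above its highest spotted-dick array. Its normalized mean went from 520.1 ± 78.4 to 146.7 ± 41.8 (SD, n = 3), leaving 28.2% of the control signal, with a log2 difference of -1.74. The 2 genes lie side by side but did not fall by the same amount: the log2 difference of CG15715 was further down by 3.65 than that of CG18081 (CG15715 minus CG18081 -3.65, or -4.38 and -2.69 with 1 and 64 added in place of 16). Within fluidics station 1, which washed GFP replicates 1 and 2 and spotted-dick replicate 1, the log2 differences were -5.35 for CG15715 and -1.95 for CG18081. Within station 2, which washed the other arrays, they were -5.36 and -1.58. Each within-station value rests on a single array of 1 of the groups.

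CG31778 and CG31777 belong to a cluster of genes on 2L for small secreted proteins related to Kunitz-type protease inhibitors, which block trypsin-like enzymes. Signals of CG31778 were 131.6, 104.9 and 89.7 under GFP RNAi, against 41.8, 57.6 and 42.0 under spotted-dick RNAi. Its values did not overlap between groups, and its normalized mean went from 98.4 ± 5.3 to 53.0 ± 9.6 (SD, n = 3), a log2 difference of -0.74 with 53.9% of the control signal left. CG31777 had signals of 1537.3, 1232.0 and 1009.2 under GFP RNAi, against 686.5, 802.7 and 750.9 under spotted-dick RNAi. Here too the groups did not overlap, although this was the smallest change of the 8: the normalized mean went from 1152 ± 26.6 to 830.1 ± 33.5 (SD, n = 3), with 72.0% left and a log2 difference of -0.47. CG31778 minus CG31777 was -0.27, and -0.42 and -0.03 with 1 and 64 added, so the gap between the 2 changes depended on the constant. In stations 1 and 2 the log2 differences were -0.85 and -0.73 for CG31778 and -0.51 and -0.46 for CG31777.

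CG9331 and CG31673 encode members of the D-2-hydroxyacid dehydrogenase family, to which the glyoxylate and hydroxypyruvate reductases belong. CG9331 had signals of 253.5, 213.7 and 112.1 under GFP RNAi, against 79.2, 72.5 and 64.5 under spotted-dick RNAi. The groups did not overlap, but GFP replicate 3 lay nearer to the spotted-dick arrays than to the other controls. Its normalized mean went from 170.6 ± 35.7 to 81.1 ± 8.6 (SD, n = 3), leaving 47.6%, and its log2 difference was -0.93, with -0.96 in station 1 and -0.66 in station 2, where GFP replicate 3 is the only control. Signals of CG31673 were 633.3, 517.5 and 393.0 under GFP RNAi, against 268.3, 262.5 and 266.4 under spotted-dick RNAi, which were nearly equal to each other and all below the controls. The normalized mean of CG31673 went from 466.1 ± 14.5 to 296.3 ± 19.8 (SD, n = 3), with 63.6% left, a log2 difference of -0.63, and values of -0.58 and -0.62 in stations 1 and 2. CG9331 minus CG31673 was -0.30, against -0.39 and -0.12 with 1 and 64 added. The probe set of CG9331 carries the suffix that Affymetrix used where probes match several transcripts, while the annotation table lists CG9331 alone for it.

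ETH encodes the precursor of ecdysis-triggering hormones, peptides that Inka cells of the tracheae release to start the shedding of the old cuticle at a moult. In S2 cells it was dim. Its signals were 30.1, 21.7 and 25.8 under GFP RNAi, all above 17.4, and 1.5, 1.2 and 6.8 under spotted-dick RNAi, all below it. The groups did not overlap, but the spotted-dick values lie within background, so the fall has only a lower bound. Against a floor of 17.4 per array the deposited signal of ETH was at least 1.47-fold lower. That ratio, again of geometric means, includes differences in brightness between arrays and bounds the deposited signal only. The log2 difference of -1.08 depended on the constant more than that of any other of the 8 genes, at -2.82 and -0.39 with 1 and 64 added, and was -1.15 and -1.14 in stations 1 and 2. Its mean in the spotted-dick arrays, 3.3 after normalization, lay under the filter value of 8.41, so ETH passed the filter on dim probe sets only through the GFP arrays. Orc4, the subunit of the origin recognition complex next to it, had signals of 141.1, 146.0 and 100.9 and of 2.7, 14.2 and 4.0. Its deposited signal was at least 7.33-fold lower by the same floor and geometric means, and its log2 difference was -2.54. In the RefSeq annotation an antisense RNA, asRNA:CR43257, overlaps ETH. It had no probe set of its own, and the strand read by the ETH probe set was not examined.

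CG8500 encodes a small GTPase of the Ras superfamily, related to the human DIRAS proteins. Its signals were 99.9, 91.7 and 58.1 under GFP RNAi, against 26.6, 27.7 and 33.2 under spotted-dick RNAi. The lowest control array was above every spotted-dick array, and all values were above 17.4. The normalized mean went from 74.4 ± 7.2 to 32.2 ± 5.9 (SD, n = 3), leaving 43.3% of the control signal. The log2 difference was -0.91, with -1.14 in station 1 and -0.71 in station 2. MtnA next to it, a metallothionein that binds copper and other metals, had signals of 13661, 12924 and 11510 and of 2668, 3153 and 3262, a log2 difference of -1.86. CG8500 minus MtnA was 0.95, and 0.67 and 1.32 with 1 and 64 added, so MtnA fell further at each constant.

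All 8 genes were lower in the spotted-dick arrays in both stations, and their groups overlapped in none, before or after normalization. In the signals as deposited, GFP replicate 1, the brightest array, held the highest control value for 8 of 8, and GFP replicate 3, the dimmest control array, the lowest for 7 of 8, with ETH as the exception. By construction of the set 8 of 8 were called lower, from which nothing is read, against 1.43% of all tested probe sets called lower and 0.604% called higher. Spotted-dick arrays lay below GFP arrays without overlap for 8.29% of tested probe sets after normalization and 12.7% as deposited. Of the 8, 3 (CG15715, CG18081 and ETH) were lower by at least 2-fold on the log2(signal + 16) scale, against 0.258% of tested probe sets called and lower by that much. As deposited the number was 5, with CG9331 (-1.18) and CG8500 (-1.11) added. There the median of all tested probe sets was itself lower, at -0.20, so this number includes differences in array brightness. The share of all probe sets lower by that much as deposited was not counted. The median log2 difference of the 8 was -0.92. By size of fall among the 11261 tested probe sets, of the members measured above background under spotted-dick RNAi, CG18081 ranked 14, CG9331 35, CG8500 36, CG31778 57, CG31673 114 and CG31777 330. In the distribution plot CG31777 and CG31673 lie on the shoulder of the main peak and CG15715 stands alone at the far left.

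**Figure D2:**
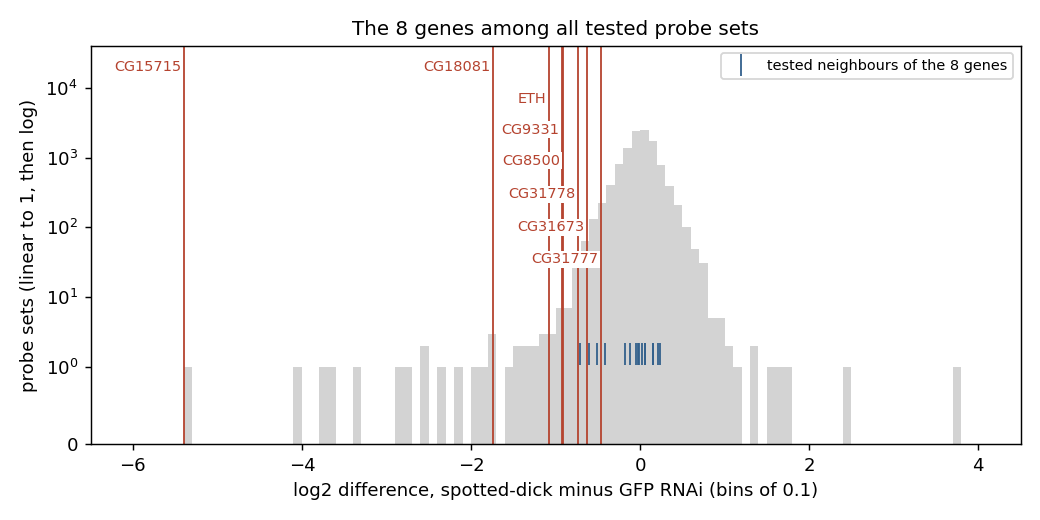
Number of tested probe sets (linear to 1, then log axis) in bins of 0.1 of the log2 difference, spotted-dick minus GFP RNAi, with red lines at the 8 genes and blue ticks at their 16 other tested neighbours. The red lines run from -5.39 for CG15715 to -0.47 for CG31777, and the blue ticks lie between -0.71 and 0.23.

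Whether the lower signal extended to further genes at the same places was asked of the genes flanking each of the 5 loci, which were taken by position alone. The 3 genes on each side in the RefSeq order gave 30 neighbours, 24 with a probe set of their own, of which 6 were too dim to be tested. Besides Orc4 and MtnA, 16 were tested. One of these, Reg-5, was called lower, 15 were not called and none was called higher, against 1.69% of all tested genes called lower and 0.763% called higher. The median log2 difference of the 16 was -0.02, compared with 0.01 for all 8262 tested genes. In 4 of the 16 the spotted-dick arrays lay below the GFP arrays without overlap, against 8.29% of all tested probe sets. These were Reg-5 and the dim genes CG31674, CG2816 and CG12947, and the groups overlapped in the other tested neighbours. Of the 15 uncalled neighbours 3 had an unadjusted p under 0.05 in limma, CG2816 and CG31674 lower and CG31955 higher (log2 difference 0.23). Over all tested probe sets, the called ones included, 1390 of 11261 had such a p. CG2816 and CG31674 passed the filter only through the GFP arrays, so nothing is read from their part in either count. Their normalized spotted-dick means of 4.7 and 3.3 lay under the filter value of 8.41. As deposited none of the 16 was called.

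Reg-5, a gene first described for its daily rhythm of expression, lies on the side of ETH away from Orc4, with asRNA:CR43257 between them. Its signals were 802.7, 781.9 and 611.9 under GFP RNAi, against 403.0, 520.7 and 432.1 under spotted-dick RNAi. The groups did not overlap, and the log2 difference was -0.41 ± 0.08 (SE, n = 3 and 3, limma adjusted p = 0.0115), with -0.47 and -0.44 in stations 1 and 2. The call ended as deposited (-0.67, adjusted p = 0.115, or -0.47 relative to a median of -0.20 for all tested probe sets), without the filter (adjusted p = 0.053) and without the intensity trend in limma (0.229). It also ended without GFP replicate 2 (0.0933) or 3 (0.0852) and without spotted-dick replicate 1 (0.0553) or 3 (0.0628), while the log2 difference in these 4 fits stayed between -0.40 and -0.37. Its value was -0.41 without the filter and without the trend. The next gene out, key, which encodes the regulatory subunit of the IκB kinase complex of the Imd immune pathway, had a log2 difference of -0.02 ± 0.07 (SE, limma adjusted p = 0.954). Beyond Orc4, CG12849 and CG3611 were too dim to be tested.

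At the other loci the genes next to the pairs did not pass. CG12713 overlaps CG18081 in the annotation, and its signals of 129.5, 90.0 and 48.7 under GFP RNAi, against 70.8, 78.1 and 82.3 under spotted-dick RNAi overlapped between groups (log2 difference 0.15 ± 0.16, SE, limma adjusted p = 0.759). On the far side of CG15715, meru had signals of 8.3, 4.0 and 16.7 and of 7.3, 1.2 and 13.8, all under 17.4. The next genes beyond CG12713, the Kelch protein gene dbo and the mRNA decapping gene DCP2, had log2 differences of -0.03 and -0.18 (limma adjusted p = 0.948 and 0.792). A change of meru could not be measured at this signal.

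A pair of dim neighbours, CG2816 and CG31674, had values in the direction of the adjacent genes without passing. CG2816, another gene of the Kunitz-type cluster, overlaps CG31778 in the annotation and had signals of 19.1, 16.8 and 13.5 under GFP RNAi, against 4.2, 5.8 and 3.6 under spotted-dick RNAi. The groups did not overlap, but most of these values lie under 17.4 (log2 difference -0.61 ± 0.24, SE, limma adjusted p = 0.293). CG31674, a further gene of the hydroxyacid dehydrogenase family next to CG31673, had signals of 21.2, 8.0 and 20.2 and of 2.4, 4.8 and 2.2 (-0.71 ± 0.27, SE, limma adjusted p = 0.263). Their normalized means in the spotted-dick arrays, 4.7 and 3.3, lay under the filter value of 8.41, so both passed the filter only through the GFP arrays. Neither gene was called in any of 16 settings. One of these has a stricter filter on dim probe sets, and the lack of a call there says nothing of them. At this depth of signal a change in them could not be separated from background. On the other sides, cutlet, which encodes a clamp-loader-like replication factor, had a log2 difference of -0.05 ± 0.13 (SE, limma adjusted p = 0.911) next to CG31777. CheB38c next to CG9331 varied from 1.7 to 32.2 among the GFP arrays alone (0.06 ± 0.33, SE, limma adjusted p = 0.962). CG12945, which overlaps CG8500 in the annotation, had signals of 101.8, 81.6 and 81.3 and of 79.1, 78.0 and 85.2 (0.16 ± 0.13, SE, limma adjusted p = 0.695), and CG12947 beyond MtnA had a log2 difference of -0.51 ± 0.26 (SE, limma adjusted p = 0.470). Where genes overlap, the positions of the probes were not used here, so the signals of CG12713, CG2816 and CG12945 may include sequence shared with the adjacent gene.

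**Figure D3:**
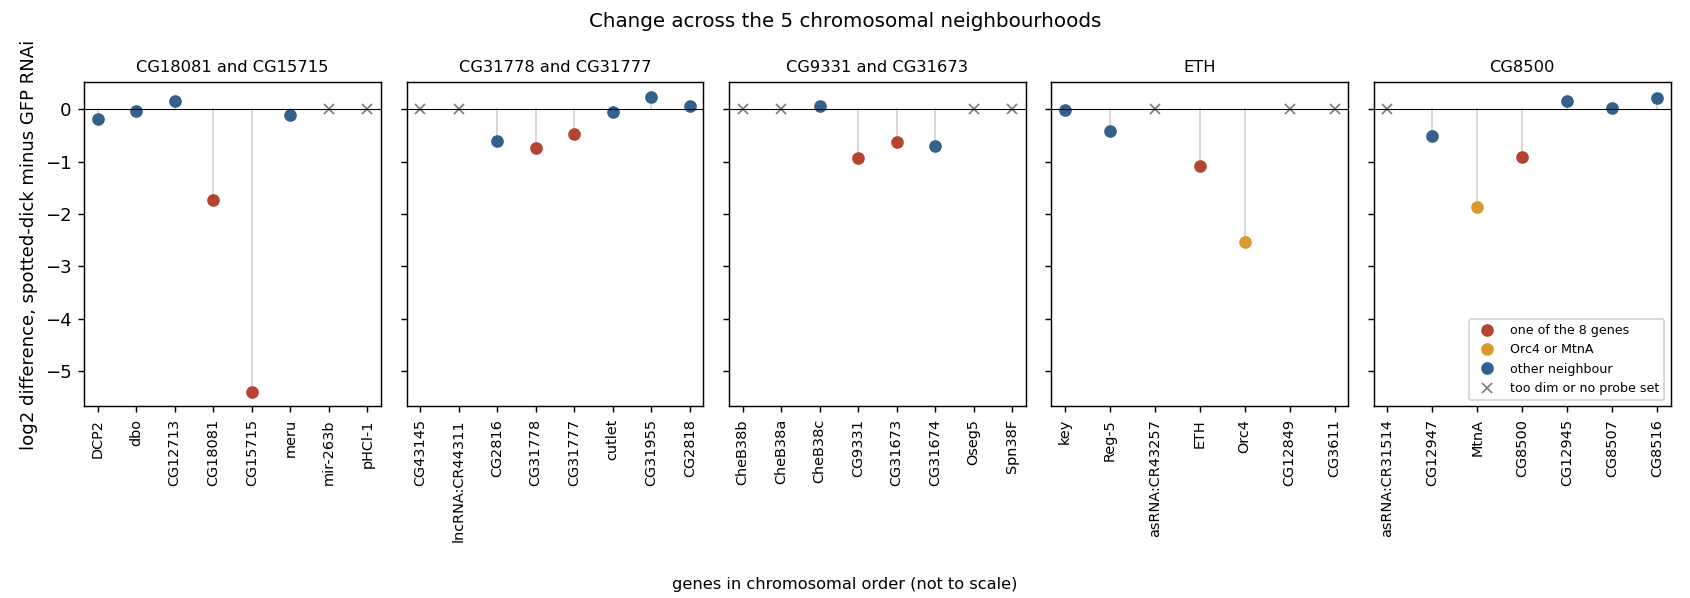
Log2 difference, spotted-dick minus GFP RNAi, of each tested gene in its chromosomal order at the 5 loci, with the 8 genes in red, Orc4 and MtnA in orange, other neighbours in blue, and a cross at 0 for genes with no tested probe set. The lowest of the other neighbours are CG31674 at -0.71, CG2816 at -0.61, CG12947 at -0.51 and Reg-5 at -0.41, and genes such as dbo, key and CG8507 lie near 0.

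Adjacent genes called together were then counted over the whole genome. Of 4823 pairs of adjacent genes that were both tested, 7 had both genes called lower (0.145%), 3 had both called higher and 1 had one gene called each way. Of the 7, 5 were the loci above, which were chosen for this. The count of 7 was 4 without GFP replicate 2, 3 without GFP replicate 3, 4 without spotted-dick replicate 1, and 2 without the filter on dim probe sets or without the intensity trend. The pair ETH and Orc4 was among the pairs in 8 of 17 settings, the reported one included.

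Outside the 8 genes the 2 remaining pairs changed little. The imaginal disc growth factor genes Idgf1 and Idgf2, which encode secreted chitinase-like proteins, had log2 differences of -0.19 ± 0.04 and -0.36 ± 0.05 (SE, limma adjusted p = 0.0289 and 0.00129). The genes bc10 and Msr-110 had log2 differences of -0.40 ± 0.09 and -0.22 ± 0.05 (SE, limma adjusted p = 0.0266 and 0.0405). Each of these 2 pairs was present in 5 of 17 settings and absent as deposited. The pairs called higher were Pngl with Strica, Fkbp39 with Cyfip, and Nemp with r, with log2 differences from 0.24 to 0.97, and alt (-0.72) with CG7655 (0.37) formed the pair in opposite directions. None of the 3 pairs called higher had a gene called as deposited.

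Most genes called lower that had a tested neighbour had none that was called lower. Of 140 genes called lower, 110 had a tested neighbour, and 14 of these had a neighbour that was called lower as well (12.7%), the 8 genes, Orc4 and MtnA among them. Those loci were picked for this pattern, so the share is partly fixed by the choice and nothing is read from it. A like share over all tested genes was not counted. For the remaining 96 no adjacent tested gene was called lower, which does not show that none of them fell. The 141 tested neighbours of called genes that were not themselves called lower had a median log2 difference of 0.01, the same as all tested genes to 2 decimals.

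Relatives of the 8 genes were examined through lists of gene families, leaving out the 8 themselves. The flanking genes CG2816 and CG31674 are on these lists and are counted again here, each lower with an unadjusted p under 0.05 in limma. Both passed the filter only through the GFP arrays, so nothing is read from their part in the counts below. Of 16 further genes of the Kunitz-type and 2L cluster list, 12 had a probe set and 7 were tested. None was called by limma, and 3 had an unadjusted p under 0.05, CG2816 and IM33 lower and Ppn higher. Over all tested probe sets 1390 of 11261 had such a p. The median log2 difference of the 7 was 0.00 (range -0.61 to 0.32), against 0.01 for all tested genes. Of the 7, CG2816, CG16704 and CG10031 had mean signals under 17.4 in both groups, so nothing can be said of their change. CG2816 and CG10031 set the ends of the range. CG3513 had a mean under 17.4 in the spotted-dick arrays only. The median includes these dim genes and does not show that the family was unchanged. Among the 7, IM33, an immune-induced member of the cluster, had a log2 difference of -0.37 ± 0.13 (SE, limma adjusted p = 0.196). Ppn, a large extracellular matrix protein with Kunitz domains, had 0.20 ± 0.09 (SE, limma adjusted p = 0.340). Of 4 further hydroxyacid dehydrogenase genes, all tested, none was called (1 with an unadjusted p under 0.05; median -0.14), including CG1236 at 0.14 ± 0.11 and the corepressor CtBP at -0.08 ± 0.07 (SE, limma adjusted p = 0.666 and 0.727).

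The ecdysis list was mostly dark in these cells. Of 9 genes besides ETH, 7 had a probe set and 2 were tested: Phm, which amidates neuropeptides, at -0.13 ± 0.06 (SE, limma adjusted p = 0.339) and the receptor gene CCAP-R at -0.13 ± 0.22 (SE, limma adjusted p = 0.870). Neither was called by limma, and 1 had an unadjusted p under 0.05. The peptide genes Eh, CCAP and Burs had mean signals of 5.5, 3.1 and 7.0 in the GFP arrays, under 17.4, so nothing can be said of their change. Of 13 other Ras-like GTPase genes, 7 were tested and none was called or had an unadjusted p under 0.05 in limma (median -0.03, range -0.31 to 0.57). Of these, CG8519, CG8641, Rgk2 and Rgk3 had mean signals under 17.4 in both groups, so nothing can be said of their change. CG8641 and Rgk3, the top of the range, had normalized GFP means of 7.0 and 4.8, under 8.41, and were tested only through the spotted-dick arrays. Ras64B, for example, had a log2 difference of -0.03 ± 0.07 (SE, limma adjusted p = 0.911). Of 6 genes listed as metallothioneins or their regulator, 3 were tested, and MtnA, called lower, is one of the genes that the choice of CG8500 rests on. Neither of the other two was called by limma, and 1 of them had an unadjusted p under 0.05. MTF-1, the zinc-finger activator of metallothionein genes, had a log2 difference of -0.02 ± 0.08 (SE, limma adjusted p = 0.949), and MtnD, with mean signals of 2.0 and 16.6, had 0.79 ± 0.34 (SE, limma adjusted p = 0.344). MtnD had signals of 8.3, 35.9 and 5.6 under spotted-dick RNAi, above 17.4 in replicate 2 alone. Its normalized GFP mean of 1.9 lay under the filter value of 8.41, so MtnD was tested only through the spotted-dick arrays. As deposited no gene of these 5 lists other than MtnA was called.

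The genes most like each of the 8 were found by the Euclidean distance between their log2 values over the 6 arrays, each gene centred on its own mean. This distance weighs the size of a change most, and its values describe these 6 arrays only. Nearest to CG15715 were Nazo, an antiviral gene (distance 1.67, log2 difference -4.04), and the copper chaperone gene Atox1 (2.06, -3.72). Nearest to CG18081 were ringer, a microtubule-associated protein gene (0.57), and CG5149 (0.58). For CG31778 they were Tsp42Ea, a tetraspanin (0.20), and CG3106 (0.23), and for CG31777 the mitochondrial ribosomal protein gene mRpL24 (0.08) and CG42394 (0.11). CG9331 was closest to Ripalpha (0.37) and the fatty acid elongase gene eloF (0.44), and CG31673 to CG7781 (0.13) and CG31436 (0.18). The lipid droplet gene Jabba (0.33) and CkIIalpha-i3 (0.41) were closest to ETH, and Amacr, an acyl-CoA racemase gene (0.28), and APC7, a subunit of the anaphase-promoting complex (0.30), to CG8500. Under spotted-dick RNAi CG3106, eloF, CG7781 and Atox1 had means of 6.7, 5.6, 14.4 and 16.4, under 17.4. The size of their changes, and so their distances, depends on background and on the added 16.

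The gene next door was the nearest match for none of the 8. The number of tested genes closer than the neighbour depended on the side from which a pair was seen. Between CG18081 and CG15715 (distance 4.50), 8252 genes lay closer to CG18081 and 11 closer to CG15715. Between CG31778 and CG31777 (0.44) the numbers were 73 and 606, and between CG9331 and CG31673 (0.55) they were 18 and 370. Orc4 was further from ETH (2.00) than 8004 genes, and MtnA further from CG8500 (1.17) than 3194. That both genes of a pair fell was fixed by the choice, and the distances describe the unequal size of their changes.

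**Figure D4:**
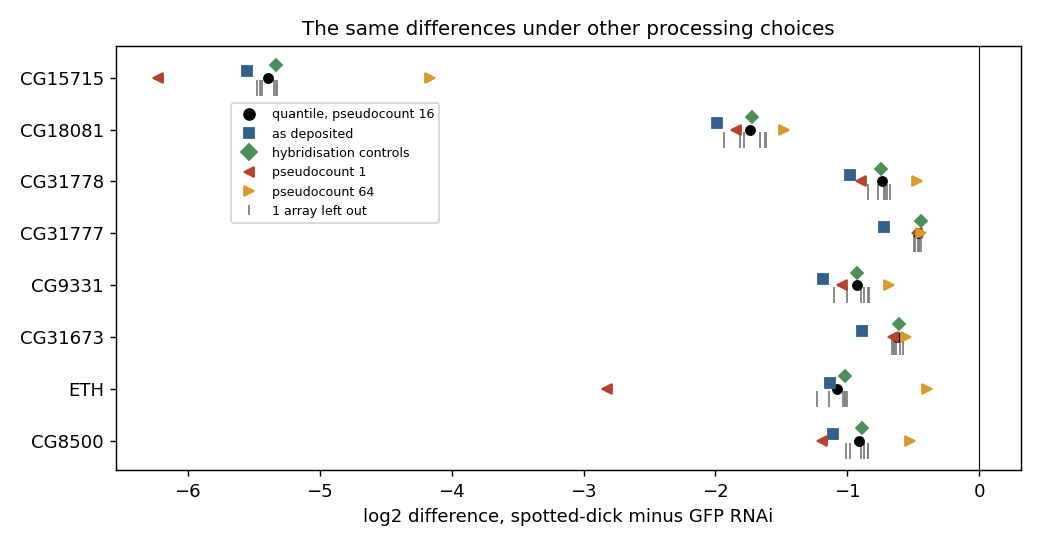
Log2 difference, spotted-dick minus GFP RNAi, of the 8 genes with quantile normalization and 16 added (black), as deposited (blue), after scaling to hybridisation controls (green), with 1 or 64 added (red and orange), and with each array left out (grey ticks). Every value lies below 0, and the widest spans are those of CG15715 (-6.23 to -4.17) and ETH (-2.82 to -0.39).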

How the data were processed

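Gene expression was measured on 6 arrays, 3 per group. Per the file headers the arrays are of the Drosophila_2 type, and the authors deposited 1 linear signal intensity per probe set and array for 18894 probe sets. For the summarising software and the scaling, the sources used here give no name. Of the probe sets, 125 were controls and 18769 measured fly transcripts. The platform annotation paired 13647 probe sets with 1 gene, 402 with several and 4720 with none, and 13544 matched the RefSeq table of Release 6, used for names and gene order. The array's build is not stated, so no coordinates are given.

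Signals were quantile normalized and converted to log2(signal + 16). Probe sets with a mean under the 40th percentile were left out. Groups were compared with limma 3.58.1 in R 4.3.3 (lmFit, eBayes with an intensity trend, Benjamini-Hochberg over 11261 probe sets). The brightest tested probe set stood for a gene. The fit was tested on simulated data. Stations were taken from the file headers. The GFP arrays were all scanned first, and the group and the order of scanning cannot be told apart. The background level came from 100 foreign-sequence control probe sets. Figures used matplotlib 3.10.9 in Python 3.11.15.

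The genes named were the 8, pita, Orc4, MtnA, the flanking genes, called list members, adjacent called pairs and the 2 genes nearest to each of the 8. Uncalled list genes given as examples were picked after their values were seen. The members, lists, tests and normalization were chosen with earlier results of these data known. One listed dehydrogenase name and 1 marker name did not match 1 gene. Alternatives were the signals as deposited, scaling to 9 hybridisation controls, 1 or 64 added, no filter or the 60th percentile, no trend, replicate or station as a block, each array left out, and genes averaged over their probe sets. Same-numbered samples of the 2 groups did not deviate together (correlations -0.06, -0.03 and 0.06), so replicate numbers were not used as pairs.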

Additional observations from a re-analysis of the deposited data

How the results depend on the processing

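The log2 differences of the 8 genes kept their sign in all 96 values computed under other settings, and 18 of these moved by more than 1 SD, mostly with the constant added or as deposited. CG15715 ranged from -6.23 to -4.17, CG18081 from -1.99 to -1.48, CG31778 from -0.98 to -0.48, CG31777 from -0.72 to -0.44, CG9331 from -1.18 to -0.66, CG31673 from -0.89 to -0.56, ETH from -2.82 to -0.39 and CG8500 from -1.19 to -0.52. Since the 8 were chosen on this contrast, the sign is fixed by the choice and is no sign of stability. All 8 were called lower in 8 of 17 settings, and the lowest number called was 4, without the intensity trend. Over all probe sets 229 were called, 161 lower and 68 higher. The count was 142 as deposited (131 lower, 11 higher, with the median of all probe sets at -0.20 in place of 0.01), 126 without the filter, 54 without the trend, and 116 to 249 with 1 array left out. It was 116 without GFP replicate 2, 146 without GFP replicate 3 and 142 without spotted-dick replicate 3. Adjacent pairs called lower numbered 7, 2 without the filter, 2 without the trend and 3 to 6 with 1 array left out. With the replicate block 198 probe sets, 5 adjacent pairs and 3 neighbours (Reg-5, Orc4 and MtnA) were called. The count of called neighbours, 3 with Orc4 and MtnA, was 2 or 3, and that of called list genes 1, in every setting. The causes were not tested. Dim genes such as ETH, CG2816 and CG31674 are limited by signal over background.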
